A study of Homo sapiens with 12 samples.

Results

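Transcribed pseudogenes, gene copies that have lost the protein-coding function of the gene they derive from but still give rise to RNA, were examined in MOLT4, an established human T lymphoblast line from an acute lymphoblastic leukaemia. They were taken as the rows of the authors' deposited table whose gene ID carries the RefSeq type transcribed pseudogene. There were 143 of them among the 5759 genes of that table, and the RefSeq table (GRCh38.p14) holds 1268 in all. The 12 samples, all labelled as wild type, formed 4 groups of 3: vehicle (DMSO) collected at 6 h, 955 (0.1 µM) collected at 1 h, 955 (0.1 µM) collected at 6 h, and SNS-032 (1 µM) collected at 6 h. SNS-032 inhibits cyclin-dependent kinases, among them CDK9, which releases paused RNA polymerase II into elongation, and 955 is a conjugate of the plant compound piperlongumine that carries SNS-032 as its warhead. As vehicle samples exist for 6 h alone, treatment and time cannot be told apart for 955 at 1 h. The labels give 1 cell line and do not say whether the samples of a group are separate cultures, so the p-values measure the spread between these samples, which may be technical.

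A processed pseudogene arose when an mRNA was copied back into the genome, and so lacks introns and the promoter of its source. An unprocessed pseudogene arose by duplication of a gene or gene segment and often keeps introns, and a unitary pseudogene is a gene that lost its function without leaving a working copy elsewhere. The gene from which a copy derives is called its parent, and a short read from a stretch that the copy and the parent share cannot be assigned to either by its sequence. By GENCODE release 29, 80 of the 143 pseudogenes were unprocessed, 28 processed and 7 unitary, 16 carried another GENCODE type and 12 were not matched. The labels do not always match: 8 of the pseudogenes are typed as protein-coding in GENCODE, namely C19orf48P, CASTOR3P, CENPBD1P, FAM86C1P, LRP5L, ORAI1, PKD1P1 and SLC26A10P. Among them ORAI1 is known as the pore subunit of the store-operated calcium channel, a working gene. All 8 are kept under the rule, and counts without ORAI1 are given. PI4KAP2 and SERHL are typed as unitary in GENCODE, although each was assigned a parent here, PI4KA and SERHL2. Their aligned transcripts were 97.8% and 98.0% identical to those parents, so the unitary class holds copies that the definition above would leave out.

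A parent was assigned to 111 pseudogenes, 81 by symbol and 30 by hand, and 32 had none assigned. For 54 pseudogenes the parent was itself in the table (38 parents), and for 57 it was not among the listed genes (43 parents). Aligned transcripts were 94.9% identical to the parent at the median of 102 pseudogenes, and ran from 68.0% to 100%. The share of a pseudogene's 50-base windows found letter for letter in protein-coding transcripts of another gene had a median of 7.35% over 131 pseudogenes with a GENCODE transcript. It was 0 in 23 of them and at least 50% in 17.

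The sequences below show how far copies that carry the results differ from their parents. Each is a stretch of 90 bases of the GENCODE transcript, 5′ to 3′, aligned without gaps inside the parent's coding sequence, and capitals mark the bases that differ. The window with an in-frame stop in the copy was taken where the best alignment held one, and otherwise the window with the most mismatches, so the windows do not stand for the average divergence. NSUN5P2 (chr7:72948293-72954763, minus strand, GRCh38.p14) derives from NSUN5 (chr7:73302516-73308826), a methyltransferase of ribosomal RNA, and the pair moved in opposite directions. The window holds 10 mismatches in an alignment 96.2% identical.
NSUN5P2: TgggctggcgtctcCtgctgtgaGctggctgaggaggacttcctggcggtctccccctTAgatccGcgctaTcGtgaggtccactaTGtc
NSUN5: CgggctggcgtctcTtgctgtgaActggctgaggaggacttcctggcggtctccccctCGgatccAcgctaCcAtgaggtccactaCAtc
TPI1P2 (chr7:129055223-129057239, plus strand) is a processed copy of the glycolytic enzyme gene TPI1 (chr12:6867420-6870948), and it too moved against its parent. Here 14 bases differ, and the aligned transcripts were 89.7% identical.
TPI1P2: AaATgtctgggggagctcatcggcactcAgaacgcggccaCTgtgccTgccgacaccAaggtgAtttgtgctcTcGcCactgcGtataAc
TPI1: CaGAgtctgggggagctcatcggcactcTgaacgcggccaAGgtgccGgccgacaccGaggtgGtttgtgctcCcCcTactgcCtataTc
PLEKHA8P1 (chr12:45173034-45216006, minus strand) is a processed copy of PLEKHA8 (chr7:30028412-30130483), which encodes a glycolipid transfer protein. Its window differs at 6 bases, and 1 of them creates a stop codon in the parent's reading frame at position 58 of the window.
PLEKHA8P1: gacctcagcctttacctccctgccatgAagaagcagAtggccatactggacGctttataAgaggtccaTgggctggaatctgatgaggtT
PLEKHA8: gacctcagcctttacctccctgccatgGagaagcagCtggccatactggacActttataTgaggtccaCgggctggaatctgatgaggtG
RPL23AP7 (chr2:113611239-113627138, minus strand) is a processed copy of the ribosomal protein gene RPL23A (chr17:28719985-28724359). It differs at 13 bases and holds a stop codon in the parent's frame at position 49.
RPL23AP7: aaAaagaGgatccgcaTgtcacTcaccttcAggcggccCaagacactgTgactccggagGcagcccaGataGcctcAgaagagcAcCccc
RPL23A: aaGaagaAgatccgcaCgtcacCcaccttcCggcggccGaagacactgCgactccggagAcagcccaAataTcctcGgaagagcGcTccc
RPL13AP5 (chr10:96750266-96750923, plus strand) stands for copies that are hard to tell from the parent, here RPL13A (chr19:49487608-49492308), with 2 differing bases even in its most divergent window.
RPL13AP5: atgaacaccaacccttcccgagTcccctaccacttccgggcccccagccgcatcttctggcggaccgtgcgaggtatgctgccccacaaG
RPL13A: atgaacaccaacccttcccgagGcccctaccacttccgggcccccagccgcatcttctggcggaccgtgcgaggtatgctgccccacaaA
H3P6 (chr2:174719800-174720858, plus strand) is a processed copy of H3-3A (chr1:226061831-226072019), which encodes histone H3.3. No base differed in any window, and the line below holds for both.
H3P6 and H3-3A: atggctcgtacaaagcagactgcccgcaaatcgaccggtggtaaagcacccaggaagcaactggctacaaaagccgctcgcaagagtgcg

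The measured values are the authors' log2 fold changes against DMSO, with the F statistic, p-value and false discovery rate (FDR) of each, and 1 average level per gene over all samples. Values of single samples were not used here, and the depth behind each value is unknown. Errors after ± are standard errors implied by the authors' F statistic. A gene was called higher or lower where its FDR was below 0.05 and its log2 fold change at least 1 in size. The table was selected on change: 5757 of its 5759 genes, and all 143 pseudogenes, were called in at least 1 comparison, so the share of genes called says little, and the direction and size are what differ. In the authors' deposited table the pseudogenes had a median average level of 2.61 (log2 CPM, 0.02 to 8.21), against 4.15 for all listed genes and 5.75 for the 38 listed parents, and 22 pseudogenes lay under 1. Of 22 marker genes of T lymphoblasts, 9 were among the listed genes, at 3.74 to 8.30. Markers of myeloid, erythroid and epithelial cells were not among them.

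After 6 h of 955, most of the listed pseudogenes had a higher share of the RNA than in DMSO, while most listed protein-coding genes had a lower one. The authors' deposited table called 105 of the 143 higher (73.4%, against 35.2% of all listed genes) and 20 lower (against 50.1% of them). Together 125 were called, 87.4%, close to the 85.3% of all listed genes. The median log2 fold change of the pseudogenes in the authors' deposited table was 1.52, against -1.03 for all listed genes, -1.08 for protein-coding genes and 1.25 for the 259 lncRNA genes. Single values ran from -3.52 to 4.47. For SNS-032, the other compound, values in the authors' deposited table gave 100 higher (69.9%, against 37.8% of all listed genes) and 26 lower (18.2%, against 52.5%), 126 in all against 90.2% of listed genes, and a median of 1.48. Both 6 h comparisons use the same DMSO samples. In bulk samples, fewer cells of a kind and less RNA per cell cannot be told apart, and no test of the set was made.

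**Figure D1:**
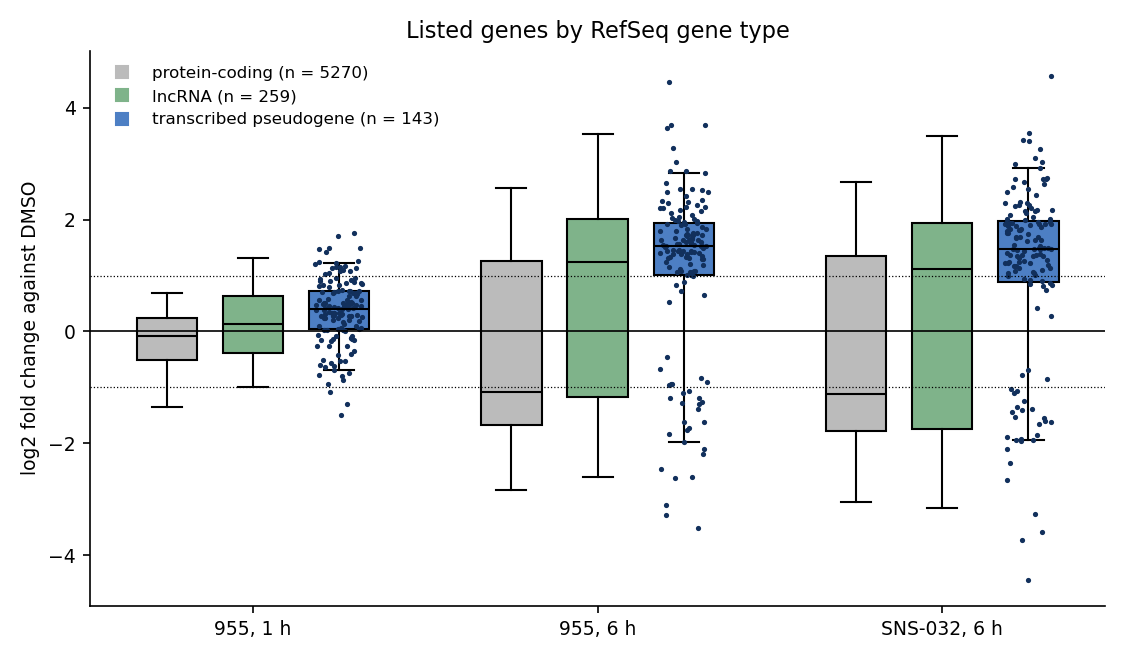
Log2 fold change against DMSO (vertical axis) of listed protein-coding genes (n = 5270), lncRNA genes (n = 259) and transcribed pseudogenes (n = 143) for 955 at 1 h, 955 at 6 h and, to the right, SNS-032. Boxes span the quartiles with the median as a line, whiskers reach the 5th and 95th percentiles, points are single pseudogenes and dotted lines mark 1 and -1. At 6 h the pseudogene medians lie at 1.52 and 1.48, and those of protein-coding genes at -1.08 and -1.11. Scaling on mitochondrial mRNAs would lower all values of a comparison by 1 constant.

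The sign of these values depends on the scaling, and their position among the listed genes does not. Scaled on the 13 mitochondrially encoded mRNAs instead, every log2 fold change falls by 0.67 for 955 at 1 h, by 2.07 for 955 at 6 h and by 2.35 for SNS-032. Then 5 pseudogenes were higher and 40 lower with 955 at 6 h, 3 were higher and 60 lower with SNS-032, and the medians were -0.55 and -0.87, against -3.10 and -3.41 for all listed genes. Under either scaling the median of the pseudogenes was 2.55 log2 units above that of all listed genes with 955 at 6 h and 2.55 with SNS-032. With 955 at 6 h, 121 of the 143 pseudogenes (84.6%) lay above the median of the listed genes, against 47.3% of protein-coding and 72.2% of lncRNA genes, and with SNS-032 it was 119 (83.2%), against 47.9% and 62.9%. Directions below are those of the authors' scaling.

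The share called higher was also set against the level of expression. In 4 bins of equal number by the pseudogenes' own levels, 69.4%, 62.9%, 80.6% and 80.6% of them, from the lowest to the highest bin, were called higher with 955 at 6 h in the authors' deposited table. Protein-coding genes in the same level ranges were called higher in 51.2%, 42.0%, 24.4% and 27.7%. For lncRNA genes in these ranges the shares were 50.5%, 50%, 60% and 61.9%. They lay below those of the pseudogenes in each bin, but nearer to them than the protein-coding shares in every bin except the lowest. Leaving out ORAI1 left 105 higher and 19 lower with 955, and 100 higher and 25 lower with SNS-032.

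**Figure D2:**
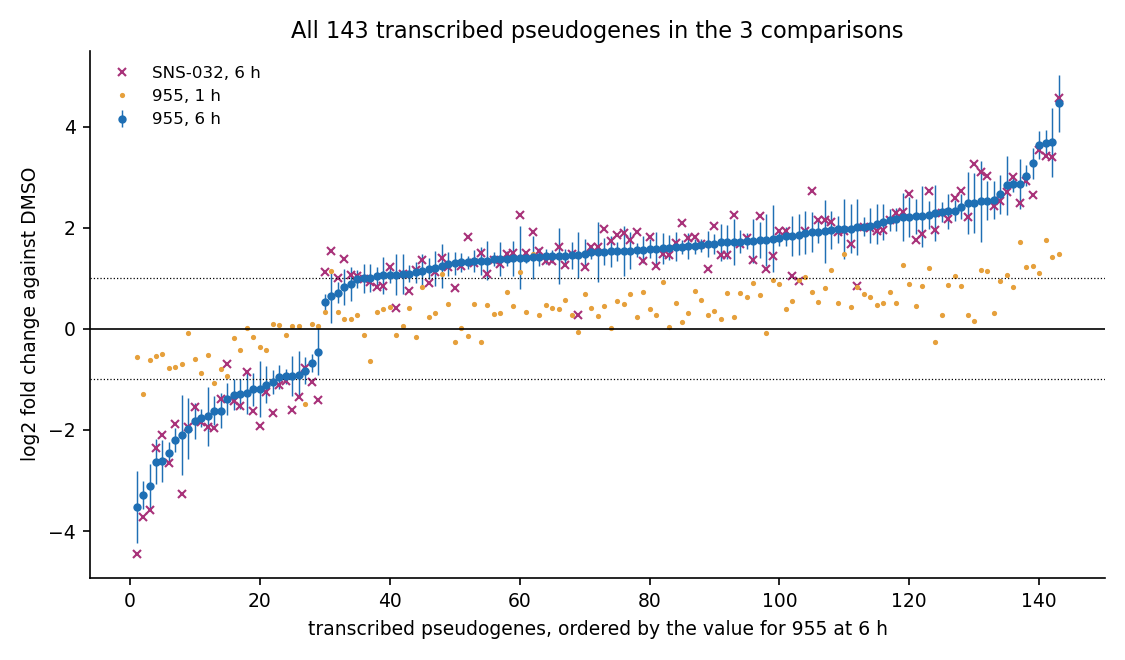
Log2 fold change against DMSO (vertical axis) of each of the 143 transcribed pseudogenes, ordered by the value for 955 at 6 h (horizontal axis). Circles with implied standard errors are 955 at 6 h, crosses SNS-032 at 6 h, small points 955 at 1 h, and dotted lines mark 1 and -1. The values for 955 at 6 h run from -3.52 to 4.47, with 114 above 0 on the authors' scale and 29 above 0 after scaling on mitochondrial mRNAs.

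Several of the pseudogenes with large rises are described here, and the SMG1 copies further on. ANKRD20A11P (gene ID 391267, chr21:13943769-13980444), a duplicate within the ankyrin repeat family ANKRD20A, had a log2 fold change of 4.47 ± 0.56 (FDR 1.07e-05) with 955 at 6 h and 4.57 ± 0.57 with SNS-032, both from the authors' deposited table. It was higher under mitochondrial scaling as well, by 2.40 and 2.22. SLC7A5P2 (387254, chr16:21517893-21520444), a processed copy of the gene for the large neutral amino acid transporter SLC7A5, had 3.69 ± 0.25 (FDR 3.12e-11) and 3.42 ± 0.25 in the authors' deposited table. FER1L4 (80307, chr20:35558737-35607562), a unitary pseudogene of the ferlin family, had 3.64 ± 0.28 (FDR 6.25e-09) and 3.54 ± 0.28 there. Both were also higher under mitochondrial scaling with either compound, SLC7A5P2 by 1.62 with 955 and 1.07 with SNS-032 and FER1L4 by 1.57 and 1.20. AHSA2P (130872, chr2:61177418-61188925), a unitary pseudogene related to the HSP90 co-chaperone AHSA1, had an average level of 6.71 (log2 CPM) and rose by 2.86 ± 0.14 (FDR 4.24e-13) on the log2 scale with 955 in the authors' deposited table, and was called higher with SNS-032 too (FDR 1.3e-13). Under mitochondrial scaling AHSA2P stayed under the bound of 1 with either compound. No window of FER1L4 or AHSA2P was shared with a protein-coding transcript of another gene. For SLC7A5P2 37.2% of windows were shared in this way, and for ANKRD20A11P 2.89%.

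Among members at or above the median level, the lowest called values with 955 at 6 h belonged to ORAI1, ZNF542P, RNF216P1, C19orf48P, CENPBD1P and ZNF252P. ORAI1 (84876, chr12:121626530-121643109) fell by 3.28 ± 0.27 (FDR 1.21e-07) with 955 at 6 h and by 3.73 ± 0.28 with SNS-032 (log2 values of the authors' deposited table). ZNF542P (147947, chr19:56368099-56379828), a duplicated zinc finger gene, had -2.46 ± 0.22 (FDR 4.04e-09) and -2.66 ± 0.23 there. RNF216P1, named for the ubiquitin ligase gene RNF216, had -2.20 ± 0.24 and -1.89 ± 0.24, C19orf48P had -1.76 ± 0.17 and -1.85 ± 0.17, and CENPBD1P had -1.62 ± 0.29 and -1.95 ± 0.30 in the authors' deposited table. With mitochondrial scaling all 20 pseudogenes called lower with 955 were still called lower.

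Few pseudogenes were called at the early time. After 1 h of 955 the authors' deposited table called 10 pseudogenes, 7 higher and 3 lower, which is 6.99% against 8.44% of all listed genes, with 4.90% higher against 0.729% and 2.10% lower against 7.71%. The median was 0.39, against -0.05 for all listed genes. SLC7A5P2 stood first with 1.76 ± 0.24 (FDR 5.64e-05), followed by SERHL, a serine hydrolase-like unitary pseudogene with an average level of 0.89 (log2 CPM), with 1.71 ± 0.49 (FDR 0.0444). The SMG1 copies SMG1P5 and SMG1P3, the coiled-coil gene copy CCDC144BP, FER1L4, and PARGP1, a copy of the poly(ADP-ribose) glycohydrolase gene, followed with values from 1.05 to 1.25. The called falls in the authors' deposited table were ZNF788P, with -1.49 ± 0.28 (FDR 0.00161), ORAI1, with -1.29 ± 0.25 (FDR 0.0068), and CENPBD1P, with -1.08 ± 0.29 (FDR 0.0291). With mitochondrial scaling 1 pseudogene was higher at 1 h, SLC7A5P2, and 15 were lower. With no fold bound the authors' deposited table called 21 pseudogenes at 1 h (14.7%), against 16.6% of all listed genes.

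Most pseudogenes that changed between 1 h and 6 h of 955 were higher at 6 h. The approximate contrast of the 2 times, which share the DMSO samples, called 88 pseudogenes (61.5%, against 62.7% of all listed genes), 74 higher at 6 h (51.7%, against 27%) and 14 lower (9.79%, against 35.6%). The median change from 1 h to 6 h was 1.05, against -0.45 for all listed genes. ANKRD20A11P gained most, by 2.99 ± 0.55 (adjusted p 0.000152), and FER1L4 by 2.54 ± 0.27 (adjusted p 1.52e-07). SSR4P1 lost most, with -2.96 ± 0.67 (adjusted p 0.000474). ZNF788P, the gene with the largest early fall, stood 0.66 ± 0.27 higher at 6 h than at 1 h (adjusted p 0.0295), within the bound of 1, so that its log2 fold change against DMSO was -0.82 at 6 h in the authors' deposited table. With mitochondrial scaling the contrast called 36 pseudogenes, 2 higher and 34 lower.

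The SMG1 and FAM86 copies each shared a direction within the family, and copies of 1 family can also share sequence and reads. All 4 listed copies of SMG1, the kinase that starts nonsense-mediated mRNA decay, were called higher with 955 at 6 h in the authors' deposited table: SMG1P5 with 3.28 ± 0.30, SMG1P3 with 3.03 ± 0.20, SMG1P1 with 2.42 ± 0.25 and SMG1P7 with 1.95 ± 0.38. The authors' deposited table gave them 2.64, 2.93, 2.72 and 2.12 with SNS-032, and mitochondrial scaling turned SMG1P7 below 0 in both comparisons. SMG1 itself was not among the listed genes, the 4 copies lie on chromosome 16, and 33.3% to 48.4% of their windows were shared with protein-coding transcripts of another gene. All 4 listed copies of the FAM86 family, named for the gene now called EEF2KMT, which methylates a lysine of translation elongation factor eEF2, were called lower in both 6 h comparisons. FAM86C1P had -3.10 ± 0.43, FAM86EP -2.62 ± 0.44, FAM86C2P -2.61 ± 0.42 and FAM86DP -1.97 ± 0.60 with 955 in the authors' deposited table, and EEF2KMT, at a level of 0.54 (log2 CPM), had -2.16 ± 0.66. The 4 FAM86 copies stayed lower under mitochondrial scaling.

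The other families are described by their counts. In the authors' deposited table the 3 copies of the mismatch repair gene PMS2 and the 3 golgin copies were all called higher in both 6 h comparisons, with values from 1.08 to 2.66 for 955, while mitochondrial scaling put all 3 PMS2 copies and 1 golgin copy (2 with SNS-032) below 0. Of the 5 copies of the beta-glucuronidase gene GUSB, 4 were called higher with 955 in the authors' deposited table (1.06 to 1.86), and GUSBP4 had -0.96 ± 0.24. With SNS-032 2 GUSB copies were called higher and GUSBP4 lower, and with mitochondrial scaling all 5 lay below 0. Of the 7 zinc finger pseudogenes, ZNF542P, ZNF818P, ZNF137P and ZNF252P were called lower with each compound by the authors' deposited table, ZNF37BP (1.35) and ZNF767P (1.09) were called higher with 955, and ZNF788P was not called. The 3 copies of WASHC1, an activator of actin nucleation on endosomes, had 0.53 to 1.42 with 955 at 6 h, where only WASH8P was called, and 1.14 to 1.91 with SNS-032, where the authors' deposited table called all 3. With mitochondrial scaling all 7 zinc finger and all 3 WASHC1 copies lay below 0 at 6 h.

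**Figure D3:**
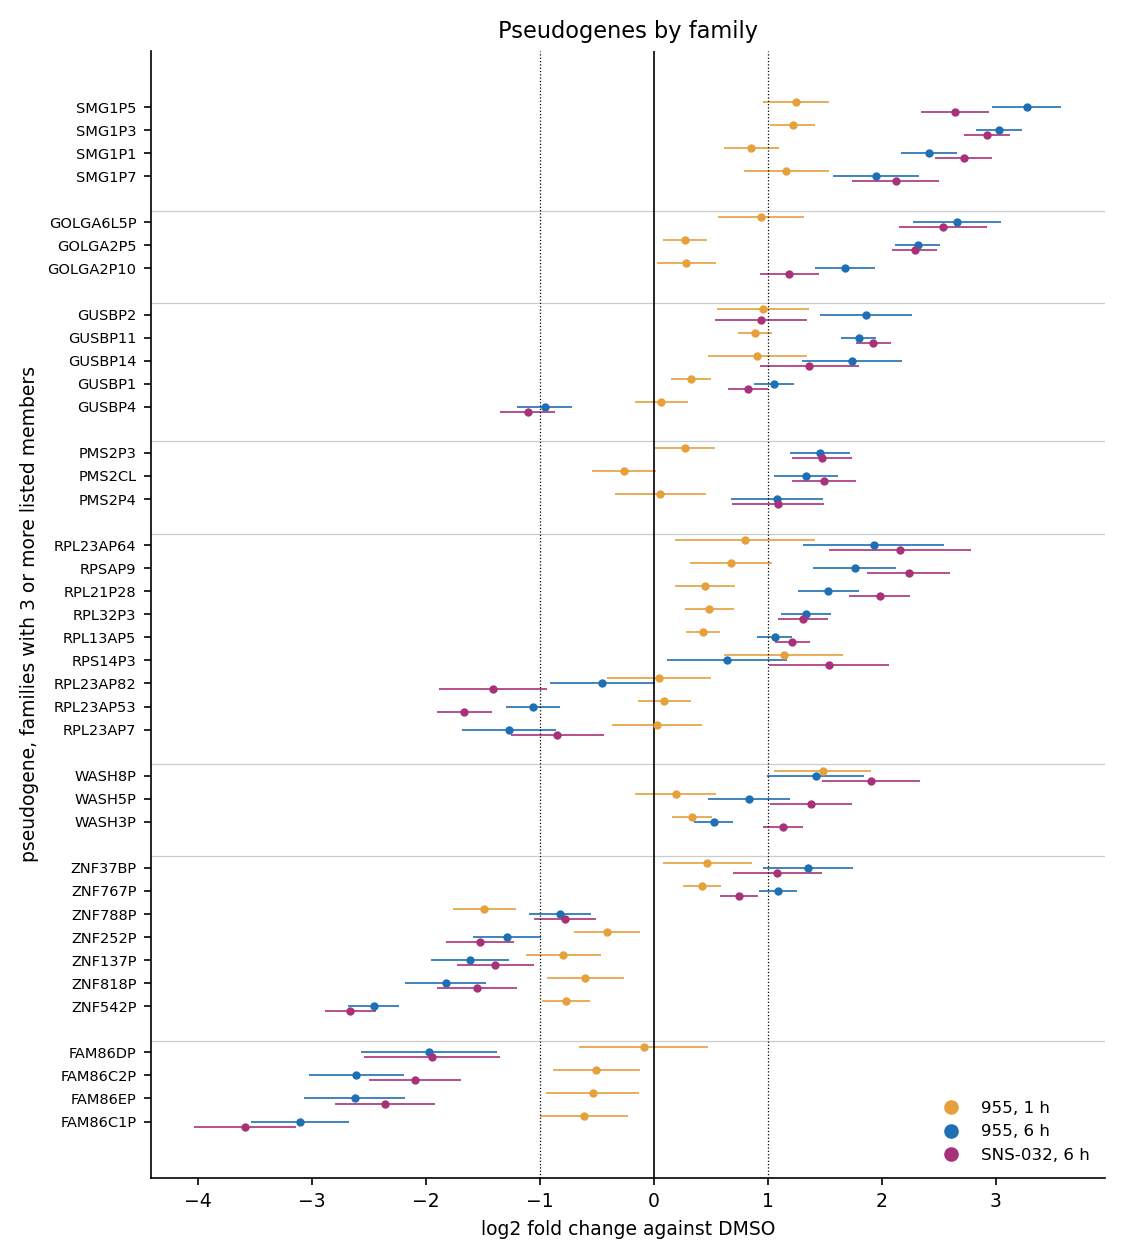
Log2 fold change against DMSO (horizontal axis) with implied standard error for pseudogenes of families with at least 3 listed members, 1 row per pseudogene, for each of the 3 comparisons. The 4 SMG1 copies lie between 1.95 and 3.28 for 955 at 6 h and the 4 FAM86 copies between -3.10 and -1.97. With mitochondrial scaling only 3 SMG1 copies and 2 golgin copies lie above 0 for 955 at 6 h.

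The comparison with parents asks whether a copy followed the gene it came from. It covers only pairs with both genes listed, and the listed genes were selected on change. The 57 pseudogenes with a parent not listed were left out, and no background share of agreement was computed. A difference of log2 fold changes within 1 comparison does not depend on the scaling, but the call of each gene does. With mitochondrial scaling 0 of the 38 listed parents were called higher at 6 h with either compound. Lower calls were then made for 23 parents with 955 and 25 with SNS-032. The counts of calls that follow therefore hold for the authors' scaling alone. With 955 at 6 h, 26 of the 54 pairs had the same call in the authors' deposited table, 16 with both higher, 4 with both lower and 6 with neither called. In 12 pairs the pseudogene was called higher and the parent lower, in 3 the reverse, in 11 the pseudogene alone was called and in 2 the parent alone. The approximate 95% interval of the difference, unadjusted and with the errors of the pair taken as independent, excluded 0 in 27 of 54 pairs, 20 with the pseudogene above the parent and 7 below. With SNS-032 29 pairs had the same call, 12 had a higher pseudogene and a lower parent, 5 had the reverse, and the interval excluded 0 in 28, 19 above and 9 below. At 1 h 52 pairs had the same call, with neither called in all of them, and the interval excluded 0 in 8, all with the pseudogene above. Pairs are not independent where 1 parent has several copies: over the 28 parents with a single listed copy, 14 intervals excluded 0 with each compound at 6 h.

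**Figure D4:**
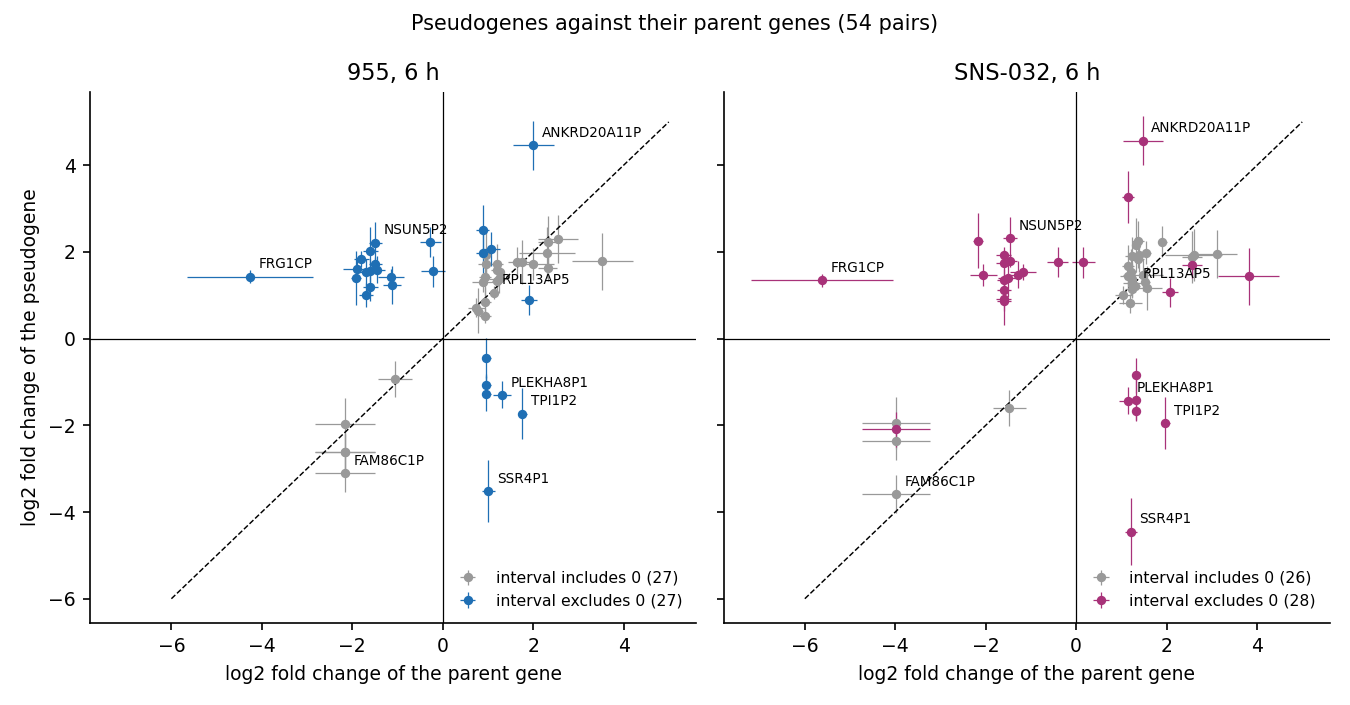
Log2 fold change of the pseudogene (vertical axis) against that of its parent (horizontal axis), with implied standard errors, for 54 pairs at 6 h, 955 on the left and SNS-032 on the right. The dashed line marks equal values, and coloured points are pairs whose approximate 95% interval of the difference excludes 0 (27 and 28). The upper left area holds pairs such as NSUN5P2, with a higher pseudogene and a lower parent. Another scaling would move every point along the dashed line.

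The 12 pseudogenes called higher against a lower parent with 955 were copies of 8 parents, among them NSUN5, CCT6A, BMS1 and SDHA. NSUN5 had -1.49 ± 0.15 (FDR 2.03e-08) with 955 at 6 h in the authors' deposited table, while its copies NSUN5P1 and NSUN5P2 had 1.73 ± 0.16 and 2.21 ± 0.48. The differences were 3.22 (95% interval 2.77 to 3.67) and 3.70 (2.66 to 4.74), and with SNS-032 they were 3.26 and 3.77. NSUN5P1 had a higher average level than its parent in the authors' deposited table, 5.93 against 5.23 (log2 CPM, not per length). CCT6A, a subunit of the cytosolic chaperonin, had -1.69 ± 0.16, against 1.53 ± 0.31 for CCT6P3 in the authors' deposited table, a difference of 3.23 (2.50 to 3.96). For the ribosome assembly factor gene BMS1 and its copy BMS1P4 the values in the authors' deposited table were -1.60 ± 0.15 and 1.57 ± 0.27, and for SDHA, a subunit of succinate dehydrogenase, and SDHAP3 -1.45 ± 0.17 and 1.59 ± 0.31. BCORP1, a copy of the corepressor gene BCOR, stood 3.63 (3.12 to 4.15) above its parent. PDE4DIPP2 stood 3.51 (2.71 to 4.30) above PDE4DIP, which encodes the scaffold protein myomegalin. Of the windows of PDE4DIPP2, 74.9% were found in protein-coding transcripts of other genes. FRG1CP had the largest difference from its parent among pairs with both levels at least 1 (log2 CPM), 5.70, but its interval ran from 2.50 to 8.90, since FRG1 had -4.26 ± 1.39 (FDR 0.0523) in the authors' deposited table.

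The reverse order, a lower pseudogene and a higher parent, was called in 3 pairs with 955 at 6 h, all with processed copies, and in 5 with SNS-032, among them the unprocessed RPL23AP82. SSR4P1, at a level of 0.82 (log2 CPM), had -3.52 ± 0.71 (FDR 0.000538) with 955 at 6 h in the authors' deposited table, and SSR4, which encodes a subunit of the translocon-associated complex, had 1.01 ± 0.14. Their difference was -4.53 (-6.05 to -3.01), over transcripts aligned at 68.0% identity along 18.2% of the copy. TPI1P2 had -1.73 ± 0.59 against 1.76 ± 0.10 for TPI1 in the authors' deposited table, a difference of -3.49 (-4.74 to -2.24), and PLEKHA8P1 had -1.30 ± 0.31 against 1.32 ± 0.20, a difference of -2.62 (-3.39 to -1.84). The windows printed above for TPI1P2 and PLEKHA8P1 differ from the parent at 14 and 6 of 90 bases.

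The ribosomal protein copies did not share a direction. With 955 at 6 h RPL13AP5, RPL21P28, RPL32P3, RPSAP9 and RPL23AP64 were called higher in the authors' deposited table (1.06 to 1.93), and RPL23AP53 and RPL23AP7 lower, with -1.06 ± 0.24 and -1.27 ± 0.41. RPL13AP5 and its parent had 1.06 ± 0.15 and 1.13 ± 0.11 in the authors' deposited table, a difference of -0.07 (-0.45 to 0.32), with 73.4% of windows shared. The 4 listed copies of RPL23A did not move together: RPL23AP64 had 1.93 ± 0.62, RPL23AP82 -0.45 ± 0.46, and the parent 0.97 ± 0.095 in the authors' deposited table. RPL23AP7 stood -2.23 (-3.11 to -1.36) from its parent with 0.148% of windows shared, and RPL23AP53 -2.03 (-2.55 to -1.50) with none shared. H3P6, which shares every window with H3-3A, differed from it by -0.03 (-0.63 to 0.58), with 0.72 ± 0.21 against 0.74 ± 0.19 in the authors' deposited table. RPL32P3 was close to RPL32, by 0.13 (-0.37 to 0.63), with no shared window and an alignment over 3.62% of the copy. With mitochondrial scaling all 9 ribosomal protein copies lay below 0 at 6 h, and the differences from the parents did not change.

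Pairs were also divided by the share of the pseudogene's windows found in protein-coding transcripts of any other gene, the parent or not. The interval excluded 0 in 8 of the 27 pairs with at least 10% of windows shared and in 17 of the 24 with less, for 955 at 6 h, and this contrast between the groups of pairs was not tested. Of the 23 pseudogenes without a shared window 20 were called higher and 3 lower with 955 at 6 h in the authors' deposited table, with a median of 1.84, and of the 73 under 10% 49 were higher and 14 lower. How the authors' counting treated reads that fit several genes is not given in the sources used here.

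**Figure D5:**
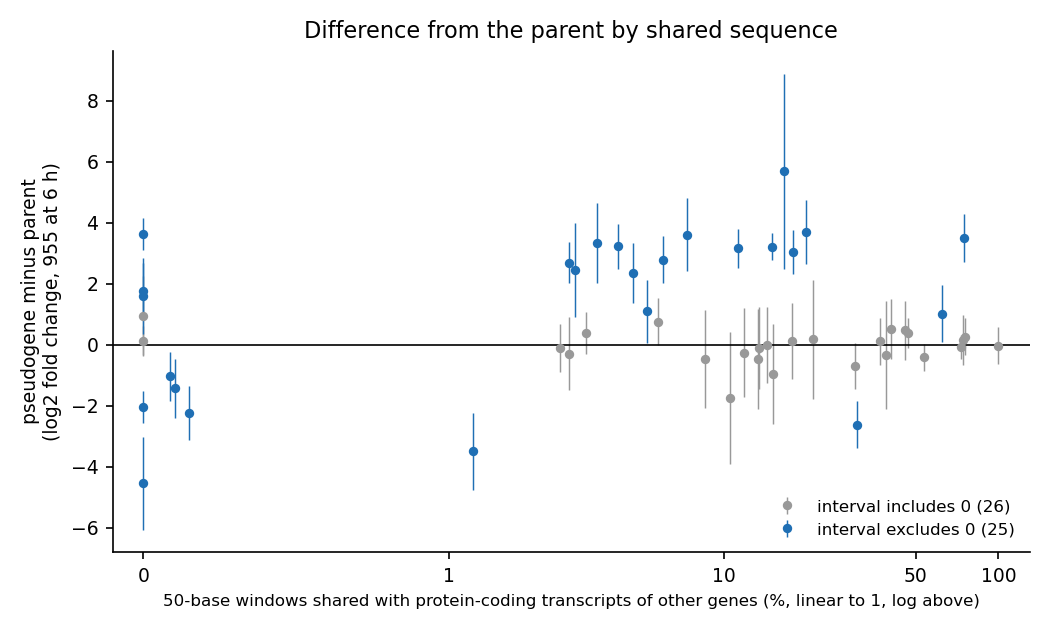
Difference of log2 fold change, pseudogene minus parent, for 955 at 6 h (vertical axis, bars are approximate 95% intervals) against the percentage of the pseudogene's 50-base windows shared with protein-coding transcripts of other genes (horizontal axis, linear to 1 and logarithmic above). Of the 27 pairs at 10% or more, 8 have an interval that excludes 0, and of the 24 pairs below it 17 have one.

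Higher calls outnumbered lower ones in each class of origin on the authors' scale. With 955 at 6 h the authors' deposited table called 65 of 80 unprocessed pseudogenes higher and 9 lower (median 1.63), 13 of 28 processed ones higher and 6 lower (median 1.19), and all 7 unitary ones higher (median 2.33). After mitochondrial scaling the medians were -0.44, -0.88 and 0.26. By position, 19 of the 21 pseudogenes on chromosome 7, 12 of 13 on chromosome 1 and all 8 on chromosome 10 were called higher in the authors' deposited table, while none of the 7 on chromosome 19, 4 of them zinc finger copies, was. Over all classes and chromosomes 73.4% of the pseudogenes were called higher, against 35.2% of all listed genes. Shares of all listed genes by chromosome were not computed, so the counts by position may follow those of the other genes there. The differences between classes and chromosomes were not tested.

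Some pseudogenes lie within or across other genes. In 24 cases a pseudogene overlapped another listed gene, and with 955 at 6 h 9 of these had a higher pseudogene and a lower neighbour in the authors' deposited table. In that comparison the authors' deposited table called 73.4% of all 143 pseudogenes higher and 50.1% of all listed genes lower. No share was computed for pairs that do not overlap, so the count of 9 may be no more than these shares give. SERHL had 2.87 ± 0.50 where the ribosome biogenesis gene RRP7A had -2.20, and RPL21P28 had 1.53 ± 0.27 where DTL, the substrate receptor of a cullin ligase, had -1.85. Whether the counting used strand is not given in the sources used here, so reads of overlapping genes may not be separated. Without the 23 pseudogenes that overlap a listed gene, 86 of 120 were called higher and 18 lower.

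The conjugate 955 was compared with SNS-032 at 6 h at different doses, 0.1 µM and 1 µM, through the shared DMSO samples. None of the 143 pseudogenes was called in the approximate contrast, against 1.11% of all listed genes (0.851% higher with 955 and 0.26% lower), and 12 (8.39%) had an unadjusted p below 0.05 against 14.8% of listed genes. The median difference, 955 minus SNS-032, was 0.03, with values from -0.89 to 1.18. The 95% interval of the difference lay within 1 log2 unit of 0 for 84 of the 143 pseudogenes, and the median half-width was 0.65, so for the other pseudogenes a difference of 1 or more is within the interval. SMPD4BP, a copy of the sphingomyelin phosphodiesterase gene SMPD4, had the lowest adjusted p, 0.0348, with 1.32 ± 0.13 for 955 and 1.83 ± 0.13 for SNS-032, both from the authors' deposited table, a difference of -0.51 (-0.78 to -0.24). It was the only pseudogene called with no fold bound, against 2.73% of all listed genes. LAMB2P1 had the largest difference, 1.18 (0.24 to 2.13, adjusted p 0.203), and was called with mitochondrial scaling (1.46, adjusted p 0.0407). For SLC7A5P2 the difference was 0.27 (-0.24 to 0.78) and for NSUN5P1 -0.07 (-0.40 to 0.26).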

How the data were processed

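RNA of MOLT4 cells was sequenced in 12 samples, 4 groups of 3, with groups taken from the sample titles. Libraries were prepared from column-purified total RNA with an mRNA kit, per the labels' protocols. The submitters' processing notes name the build hg38 and DESeq2, while the columns of the table (log2 fold change, average level, F, p-value, FDR) are given per the file headers. The aligner, counter, use of strand, multi-mapping rule and filters are not given in the sources used here. The log2 fold changes and average log2 CPM, the F statistic (a score) and the p-values and FDR were deposited by the authors and used as such. The planned tests on values per sample were replaced by these.

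Members and gene lists were chosen with earlier results of these data known, and 17 of the parents were written after the members were listed. Genes were matched by ID to RefSeq (GRCh38.p14), for 5727 of 5759 IDs. Parents came from the symbol (the name without its P suffix) or by hand. Transcripts came from GENCODE release 29, aligned with BLAST 2.17.0, with windows of 50 bases. The implied standard error was the absolute log2 fold change over the root of F, with degrees of freedom solved from p (median 23.3). Contrasts between treated groups used the difference of 2 log2 fold changes, the root mean square of their standard errors and Benjamini-Hochberg adjustment over all 5759 genes (Python 3.11.15, scipy 1.17.1). Pair intervals used the root of the summed squared errors at 95% confidence. Both steps were tested on simulated data with errors drawn independently for each gene. Reads shared within a pair were not simulated, so the test does not cover them.

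Named genes were, among members at or above the members' median level, the 6 highest and 6 lowest called in each comparison. Added were the 8 largest and 6 smallest pair differences among pairs with both levels at least 1 (log2 CPM), families with 3 or more members, members opposite to their parent, and a list of pseudogenes with a described role. ANKRD20A11P, SERHL, SMPD4BP, LAMB2P1, PI4KAP1 and PI4KAP2 were named after their values were seen. Alternatives were other call rules, mitochondrial scaling, a level of at least 1 (log2 CPM), other standard errors, other parent rules, and, chosen after seeing the data, leaving out ORAI1, overlapping members or members with 10% or more of windows shared.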

Additional observations from a re-analysis of the deposited data

Results flagged for a closer look

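The contrast of 955 at 6 h with 955 at 1 h, a test of the difference between the 2 times, called 88 of 143 pseudogenes, 61.5% against 62.7% of all listed genes, so the number called is near the background. Of the 88, 74 were higher at 6 h (51.7%, against 27% of all listed genes) and 14 lower (9.79%, against 35.6%). With mitochondrial scaling 36 were called, 2 higher and 34 lower. The vehicle group was collected at 6 h only.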

How the results depend on the processing

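Of 110 alternatives over 17 counts, 62 kept the count within 1.5 times and 48 moved it. Mitochondrial scaling turned the pseudogenes' median log2 fold change from 1.52 to -0.55 (955 at 6 h) and from 1.48 to -0.87 (SNS-032). At 1 h of 955, 10 pseudogenes called (7 higher, 3 lower) became 21 (16 and 5) with no fold bound, 6 (4 higher) at FDR under 0.01, 0 (0 and 0) at a bound of 2, and 16 (1 and 15) with mitochondrial scaling. With members sharing under 10% of windows, 73 in number, 4 were called at 1 h, 1 of them higher. For 955 at 6 h, 125 (105 and 20) became 39 (32 and 7) at a bound of 2, 45 (5 and 40) with mitochondrial scaling, and 63 (49 higher) among those 73. For SNS-032, 126 (100 and 26) became 42 (35 and 7), 63 (3 and 60) and 63 (44 higher). The contrast of 955 with SNS-032 went from 0 to 1 with no fold bound and to 1 with mitochondrial scaling, and that of 6 h with 1 h from 88 to 36 with mitochondrial scaling. Intervals excluding 0 went from 8 to 4 (1 h), 27 to 14 (955 at 6 h) and 28 to 14 (SNS-032) over the 28 parents with 1 copy, and to 2, 17 and 17 over the 24 pairs under 10% shared. Same calls went from 52 to 26, 26 to 13 and 29 to 13 over the 28 parents, and to 23, 6 and 10 over the 24 pairs. By symbol alone (37 pairs) they were 14 with 955 and 16 with SNS-032, and with both levels at least 1 (38 pairs) 16 and 18. These alternatives compare counts and not shares, so changes over subsets of pairs or members follow in part, and for some counts almost wholly, from their smaller number. With 955 at 6 h, 87.4% of the 143 members were called, and 86.3% of the 73 under 10% shared. Intervals excluding 0 made up 50% of the 54 pairs and 50% of the 28 with 1 copy, but 70.8% of the 24 pairs under 10% shared. No paired analysis was possible because the table holds no values per sample, and for that reason the replicate block, leaving out single replicates and other size factors were not run. Depth per sample is unknown, and the 22 pseudogenes under 1 (log2 CPM) had a median implied standard error of 0.59 with 955 at 6 h, against 0.28 for the other 121.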

Other observations

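The pseudogenes whose parent was not among the listed genes are described here by counts, with no test. With 955 at 6 h the authors' deposited table called 48 of 57 higher and 4 lower where the parent was not listed (median 1.54), and 37 of 54 higher and 9 lower where it was (median 1.48). Of the 32 without an assigned parent 20 were higher and 7 lower. The copies of the lipid kinase gene PI4KA, PI4KAP1 and PI4KAP2, also lack a listed parent, with 1.63 ± 0.14 and 1.56 ± 0.14 with 955 and 2.09 ± 0.14 and 1.92 ± 0.14 with SNS-032, all from the authors' deposited table. With mitochondrial scaling both lay below 0.

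TPTEP1 (average level 6.33, log2 CPM) and GUSBP11 (6.17) were among the better expressed copies that passed the FDR but not the fold bound at 1 h of 955, with 0.57 ± 0.12 (FDR 0.00545) and 0.89 ± 0.15 (FDR 0.00067) in the authors' deposited table. Both were called at 6 h, with 1.65 ± 0.12 and 1.80 ± 0.15, and lay below 0 at 6 h with mitochondrial scaling.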
